A study of Mus musculus with 6 samples.

Results

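Expression of 42 genes of DNA excision repair, mismatch repair, direct reversal and DNA end joining was measured by RNA sequencing in mouse leukemic blasts from bone marrow. The genes were chosen by name, and each of the 42 matched 1 row of a table of 35932 genes, through the GENCODE M21 pairing of Ensembl identifiers with symbols. All 6 libraries came from myeloid blasts positive for the leukemia fusion MLL-AF9. Of these, 3 libraries were of chemotherapy-sensitive blasts labelled as given vehicle, and 3 were of chemotherapy-resistant blasts labelled as given cytarabine with doxorubicin. Resistance and drug exposure went together in every library, so they cannot be told apart. The labels give no dose, time, animal age or strain, no way in which the fusion was introduced, and no word on whether replicates came from separate animals, so the p-values rest on how these libraries vary among themselves, and part of that variation may be technical.

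Cells repair damaged bases and broken strands by several routes. In nucleotide excision repair, bulky adducts are recognised, the helix is opened by helicases of the general transcription factor TFIIH, and nucleases cut out a stretch of the damaged strand. In base excision repair a glycosylase removes 1 altered base, an endonuclease cuts the bare site, and a polymerase and a ligase fill and seal it. Mismatch repair removes replication errors, and non-homologous end joining rejoins broken ends that the Ku dimer has bound. Doxorubicin poisons topoisomerase II and leaves DNA breaks, and cytarabine is built into DNA and stalls its synthesis.

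Library totals ran from 22206341 to 31856009 counts, and the 42 repair genes together took 0.297% to 0.310% of a library. The 10 myeloid blast markers were split, with 3 higher, 3 lower and 4 not passing. The myeloperoxidase gene Mpo had a mean of 1893 CPM (counts scaled to library size with TMM factors) in sensitive and 1502 CPM in resistant blasts. Its groups overlapped and it did not pass. Those higher were the progenitor marker Cd34 (619 and 764 CPM), Hoxa9 (199 and 269 CPM) and Ctsg (710 and 828 CPM). Cebpa, a myeloid transcription factor gene, fell from 95.8 to 25.3 CPM. Elane, the neutrophil elastase gene, fell from 503 to 255 CPM, and Kit from 134 to 109 CPM. Sums of several lists of markers of other cells also differed between the groups. The 12 neutrophil markers summed to 214.5 to 256.7 CPM in sensitive and 35.3 to 55.5 CPM in resistant libraries, with 10 of 11 tested members lower. The 10 monocyte and macrophage markers summed to 945 to 1043 CPM and 499.6 to 560.1 CPM, with 6 lower and 4 not passing. Ly6c2 made up the largest part (681 and 264 CPM), and the next, Adgre1, had a higher resistant mean (133 and 145 CPM) without passing. Of 11 red cell markers 9 had a row, and these summed to 46.7 to 81.7 CPM and 1.1 to 2.96 CPM. Of 7 tested, 6 were lower, while Klf1 had a higher resistant mean (0.689 and 1.02 CPM) and did not pass. The 4 globin genes among them summed to 42.2 to 73.2 CPM and 0.126 to 1.32 CPM. The 10 T and NK cell markers summed to 50.6 to 68.9 CPM and 72.2 to 98.8 CPM, and Nkg7 made up most of that sum (55.4 and 86.7 CPM). Of 3 tested, Nkg7 was higher, Cd8a was lower (2.99 and 1.89 CPM) and 1 did not pass. The 8 stromal and endothelial markers summed to 42.2 to 53.2 CPM and 32.8 to 38.2 CPM, mostly from Pdgfrb (46.5 and 34.1 CPM). The 9 B cell markers summed to 39.4 to 42.6 CPM and 39.1 to 41.6 CPM, nearly all of it Cd79b (38.9 and 38.3 CPM), so that sum describes 1 gene. The 5 megakaryocyte markers summed to 11.4 to 12.5 CPM and 10.2 to 12 CPM, but single genes moved both ways. Of 3 tested, Gp1ba was higher (2.01 and 4.72 CPM), Itga2b was lower (8.29 and 5.10 CPM) and 1 did not pass. No marker of the lists used was at 0 in all 6 libraries. The part of these other cells in the repair gene results was not tested, and in bulk RNA fewer cells of a type and less RNA per cell cannot be told apart.

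Repair genes moved by small amounts and in both directions. Of the 42, 41 passed the low-count filter, and 11 of these were higher and 6 lower in resistant blasts (edgeR quasi-likelihood test, Benjamini-Hochberg adjustment over all 13414 tested genes, threshold 0.05). The 17 called made up 41.5% of the 41, against 39.2% of all tested genes, so the share called was near the background. Those higher were 26.8% against 18.5% in the background, and those lower 14.6% against 20.8%. The median log2 fold change, resistant over sensitive, was -0.01 for the repair genes and -0.01 for all tested genes. Few changes were large: 3 of 41 passed with more than 1.5-fold (7.32%, against 14.2% of all tested genes) and 1 with more than 2-fold (2.44%, against 7.79%). The values of the 3 resistant libraries lay apart from those of the 3 sensitive ones in 24 of 41 (58.5%, against 52.4% of all), above in 14 and below in 10, where the background shares were 25.2% and 27.2%. Without sensitive replicate 2 the number higher dropped to 5 of 41, and without sensitive replicate 3 to 7 of 41. Over all genes it was 1641 of 13781 and 1861 of 13607 in those fits, against 2475 of 13414 in the full data. The number lower among the repair genes stayed between 5 and 7 with any 1 library left out.

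**Figure D1:**
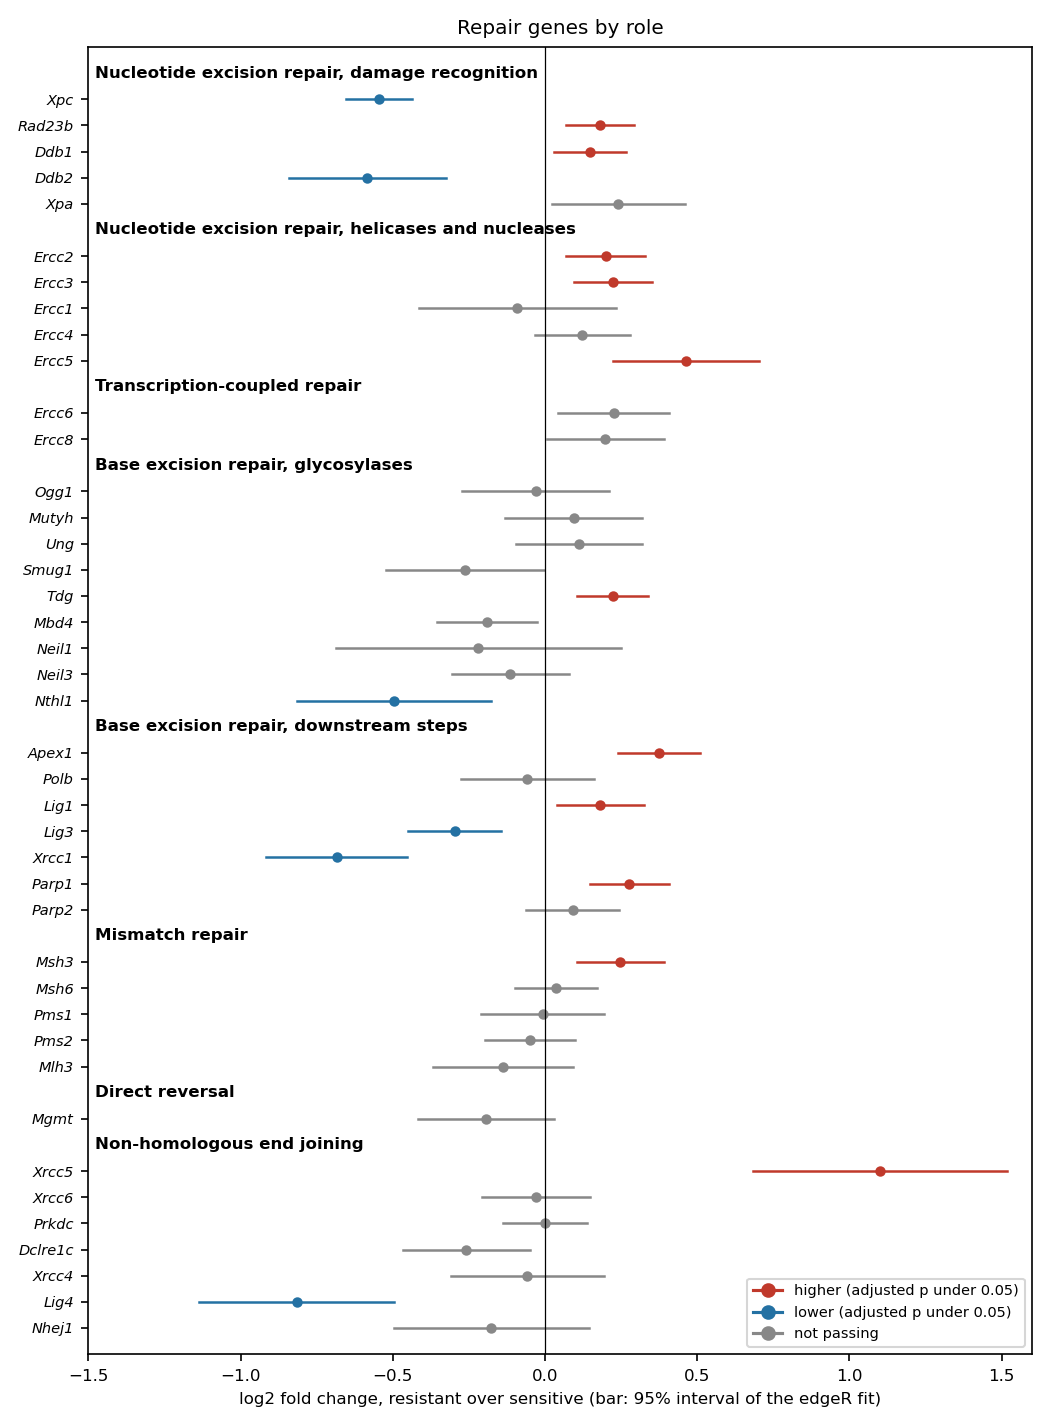
Log2 fold change of each of the 41 tested repair genes, resistant over sensitive (x axis), in rows grouped by repair role; points are estimates, bars 95% intervals of the edgeR fit, and red, blue and grey mark higher, lower and not passing. Xrcc5 (1.10) and Lig4 (-0.82) lie farthest to each side, both in the end-joining group, and the 24 grey intervals all fall between -0.69 and 0.46.

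Damage recognition in nucleotide excision repair split within its partner pairs. Xpc, which encodes the DNA-binding sensor of helix distortion, stood at 354, 348 and 340 CPM in the sensitive libraries and at 236, 243 and 235 CPM in the resistant ones. The groups lay far apart, and Xpc fell by 0.55 ± 0.05 on the log2 scale (SE, n = 3 per group, edgeR adjusted p = 1.59e-05). Rad23b encodes the partner that stabilises the XPC protein. It went the other way, from 213, 203 and 201 to 233, 238 and 227 CPM (0.18 ± 0.05, edgeR adjusted p = 0.0169). Within each library the ratio of Xpc to Rad23b counts was 1.67, 1.72 and 1.70 in sensitive and 1.01, 1.02 and 1.03 in resistant blasts, so the ratio fell in every resistant library.

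Ddb1 and Ddb2 encode the subunits of the UV-damaged DNA binding complex, which finds lesions ahead of XPC. Ddb2, the damage-binding subunit, was at 9.74, 12.1 and 11.7 CPM in sensitive libraries and at 7.72, 7.33 and 7.26 CPM in resistant ones (-0.58 ± 0.12, edgeR adjusted p = 0.00291). Ddb1, the adaptor that also serves other CUL4 ubiquitin ligases, was at 469, 446 and 433 CPM against 476, 503 and 513 CPM (0.15 ± 0.05, edgeR adjusted p = 0.0474). The resistant values of Ddb1 were all above the sensitive ones, but its call was among the least firm: it was lost in 7 of 14 alternatives, among them the fits without sensitive replicate 2 or 3 or resistant replicate 2 or 3, with adjusted p up to 0.18. That of Rad23b was lost without sensitive replicate 2 (0.0887) or 3 (0.0809). Xpa, which encodes the protein that checks the damage at the opened site, did not pass (0.24 ± 0.10, 95% interval 0.02 to 0.46, edgeR adjusted p = 0.0757), although its groups did not overlap. It passed without resistant replicate 3 (0.0436). On the annotation, the gene Acp2 on the opposite strand covers 23.8% of the exon bases of Ddb2. Acp2 was at 46.7 and 46.6 CPM in the 2 groups (adjusted p = 0.981), and how much its reads add to Ddb2 was not tested.

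The genes that act after recognition were higher or did not pass. The TFIIH helicases Ercc2 (XPD) and Ercc3 (XPB) rose together. For Ercc2 the values were 53.6, 54.5 and 56.8 CPM in sensitive and 63.2, 64.5 and 61.8 CPM in resistant libraries (0.20 ± 0.06, edgeR adjusted p = 0.0208). For Ercc3 they were 63.1, 61.3 and 63.4 against 76, 73 and 70.4 CPM (0.22 ± 0.06, edgeR adjusted p = 0.0114). Neither gene had overlapping groups, and the ratio of Ercc3 to Ercc2 had overlapping groups, at 1.12 to 1.18 in sensitive and 1.13 to 1.2 in resistant libraries. The call of Ercc2 was lost without sensitive replicate 1 (0.0639) or 2 (0.0925), and that of Ercc3 without sensitive replicate 2 (0.0666). Exons of Klc3 and of an antisense model lie opposite to those of Ercc2, over 17.8% and 24.6% of its exon bases. Klc3 did not pass the low-count filter.

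Of the nucleases, Ercc5 (XPG), which cuts on the 3′ side of the lesion, rose by the largest amount among the nucleotide excision repair members, from 12.7, 12.2 and 12.3 to 19.7, 15.9 and 15.6 CPM (0.46 ± 0.11, edgeR adjusted p = 0.00702). Resistant replicate 1 was the highest of the 3, and the call held without it, as it did in all 14 alternatives. Ercc4 (XPF) and Ercc1, which together form the nuclease for the 5′ side, did not pass. Ercc4 was at 36.8 ± 1.42 and 40 ± 2.23 CPM (SD, n = 3 each; 0.12 ± 0.07 SE, edgeR adjusted p = 0.194). Ercc1 was at 10.9 ± 0.771 and 10.2 ± 2.13 CPM, with resistant values from 8.32 to 12.5 CPM that spanned all sensitive ones. Its 95% interval was -0.41 to 0.23.

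Both genes that couple this pathway to stalled RNA polymerase had positive changes that did not pass. Ercc6 (CSB), a chromatin remodeller, was at 57.1, 63 and 56.9 CPM in sensitive and 69.4, 76.2 and 61.4 CPM in resistant libraries (0.23 ± 0.08, edgeR adjusted p = 0.0519). It lay close to the threshold, and 7 of 14 alternatives passed it, DESeq2 (0.0356), the replicate block (0.0207) and the fit without resistant replicate 3 (0.0116) among them. Ercc8 (CSA), a subunit of a ubiquitin ligase, had a change of 0.20 ± 0.09 (edgeR adjusted p = 0.0926), with groups that did not overlap, and passed in none of the 14.

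Glycosylases that start base excision repair mostly did not pass: 1 of 9 tested was higher and 1 lower. Tdg, which removes thymine and uracil mispaired with guanine and products of TET oxidation, rose from 142, 134 and 137 to 166, 156 and 159 CPM (0.22 ± 0.05, edgeR adjusted p = 0.0075). It has near-identical annotated copies, so its value is uncertain where reads could be split between them. Tdg-ps aligns to 84.8% of the longest Tdg transcript at 98.7% identity and Gm9855 to 34.1% at 99.2%. Tdg-ps was at 5.71 and 6.71 CPM and Gm9855 at 14.4 and 15.2 CPM in the 2 groups, and neither passed. The call of Tdg was lost without sensitive replicate 2 (0.0545). Nthl1, which removes oxidised pyrimidines, fell from 5.4, 6.12 and 6.51 to 4.07, 4.78 and 3.98 CPM (-0.50 ± 0.14, edgeR adjusted p = 0.02). Its mean of 142 counts is low, and its call was lost without sensitive replicate 2 (0.0712), sensitive replicate 3 (0.0819), resistant replicate 1 (0.0537) or resistant replicate 3 (0.0549).

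The other 7 tested glycosylases stayed short of the threshold. Ung, the main uracil glycosylase, had sensitive values of 59.7 to 62.9 CPM and resistant values of 56.1, 73.8 and 70.8 CPM. Its change was 0.11 ± 0.09 (edgeR adjusted p = 0.375), and it passed without resistant replicate 1 (0.23, adjusted p = 0.0195), the library that held the low value. Smug1, a second uracil glycosylase, had all resistant values (7.68 to 9.9 CPM) below all sensitive ones (10.1 to 10.6 CPM; -0.26 ± 0.12, edgeR adjusted p = 0.101) and passed without resistant replicate 1 (0.0293). Mbd4, which acts on mismatches at methylated CpG sites, did likewise (33.8 ± 0.653 against 29.6 ± 1.98 CPM, SD; -0.19 ± 0.07 SE, edgeR adjusted p = 0.0634), and passed without that same library (0.0284). Ogg1 and Mutyh, which deal with 8-oxoguanine and the adenine opposite it, had changes of -0.03 ± 0.11 and 0.09 ± 0.10. Camk1, on the opposite strand over 10.6% of the exon bases of Ogg1, fell by 0.79 ± 0.09. None of the NEIL glycosylase genes, whose products remove oxidised bases, passed. Neil3 was at 61.7 ± 3.76 and 56.9 ± 6.59 CPM, Neil1 at 1.99 ± 0.182 and 1.72 ± 0.221 CPM. Neil2 was not tested, with 1, 5 and 2 counts in the sensitive and 2, 1 and 3 in the resistant libraries.

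**Figure D2:**
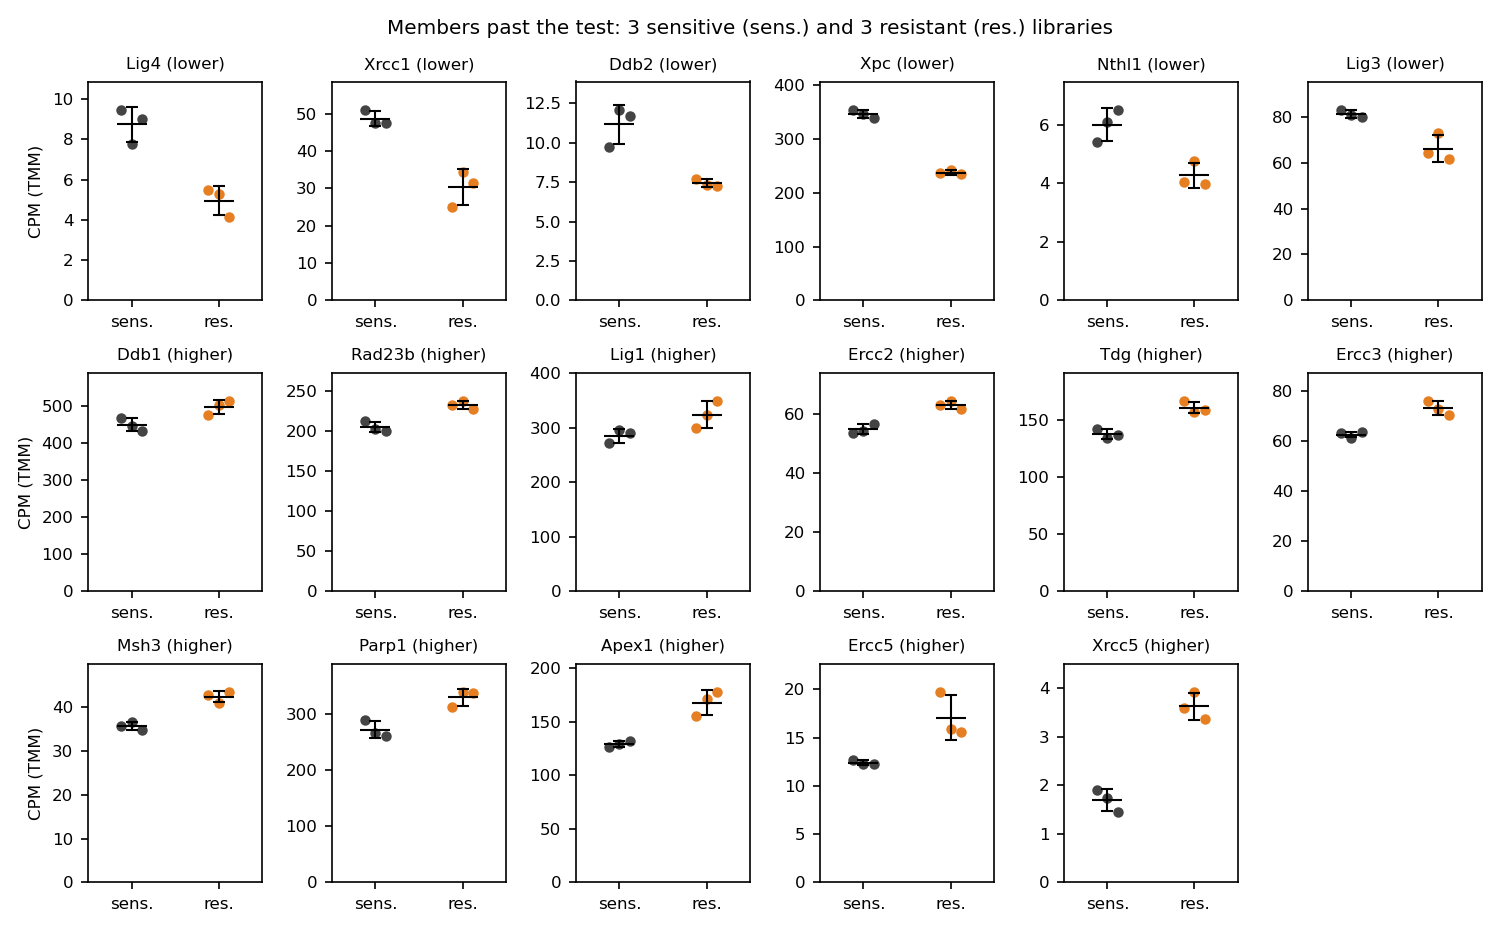
CPM (y axis, from 0) of the 17 repair genes past the test in each sensitive and resistant library (x axis), 1 panel per gene ordered by fold change; points are libraries, and the bar and whiskers the mean and SD of 3. In none of the 17 panels do the groups overlap, which selection by the test makes likely, so this only describes the panels. The log2 fold changes run from -0.82 (Lig4) to 1.10 (Xrcc5), with the smallest at 0.15 (Ddb1).

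Steps after the glycosylase divided between the nick sensor and endonuclease on one side and the scaffold with its ligase on the other. Apex1, the main endonuclease at bare sites, rose from 127, 129 and 132 to 155, 171 and 177 CPM (0.38 ± 0.06, edgeR adjusted p = 0.000871). Parp1, which binds breaks and makes poly(ADP-ribose), rose from 288, 265 and 261 to 312, 338 and 337 CPM (0.28 ± 0.06, edgeR adjusted p = 0.0041). Xrcc1 encodes the scaffold that PARP1 activity recruits. It fell from 51, 47.4 and 47.5 to 25.1, 34.5 and 31.5 CPM (-0.68 ± 0.10, edgeR adjusted p = 0.000606). The 3 resistant values of Xrcc1 were uneven, yet each was well below the lowest sensitive value. Lig3, the ligase that is bound to XRCC1, fell less, from 82.9, 80.7 and 79.9 to 64.2, 72.8 and 61.6 CPM (-0.30 ± 0.07, edgeR adjusted p = 0.00691). Within a library there were 0.615, 0.587 and 0.594 Xrcc1 counts per Lig3 count in sensitive blasts and 0.391, 0.473 and 0.512 in resistant ones. The calls of these 4 genes held in all 14 alternatives.

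Lig1, the replicative ligase that seals long repair patches, was at 271, 296 and 290 CPM against 299.8, 324 and 349 CPM (0.18 ± 0.06, edgeR adjusted p = 0.0455). Its call was lost in 7 of 14 alternatives, among them leaving out any sensitive library or resistant replicate 2 or 3 (adjusted p 0.0742 to 0.147). The ratio of Lig1 to Lig3 counts went from 3.27, 3.66 and 3.63 to 4.67, 4.45 and 5.67. Polb, the gap-filling polymerase, did not pass (19.9 ± 2.26 and 19.1 ± 0.843 CPM, SD; edgeR adjusted p = 0.678), nor did Parp2, a second break-activated polymerase of ADP-ribose (0.09 ± 0.07 SE, edgeR adjusted p = 0.325). For each count of Parp2 there were 4.63 to 4.91 of Parp1 in sensitive and 5.24 to 5.86 in resistant libraries.

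Several of these loci share DNA with a neighbour. The exons of Pip4p1 on the opposite strand cover 61.7% of the exon bases of Apex1, and Rffl those of Lig3 over 25.1%. Pip4p1 fell by 0.26 ± 0.07 while Apex1 rose. Rffl fell by 0.26 ± 0.06, close to the change of Lig3. Whether counting used strand is not given in the sources used here, so reads of Lig3 and Rffl may be mixed. Leaving out the 4 members that an opposite-strand gene overlaps over more than 20% (Apex1, Ddb2, Ercc2 and Lig3), 9 of 37 were higher and 4 lower. Of all tested genes 18.5% were higher and 20.8% lower.

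The hexamer CACGTG, an E-box that MYC, MAX and USF proteins can bind, was looked for on both strands in the 250 bases before the start site (RefSeq windows, GRCm38.p6), with a window for 36 members. It was present in 8 of 36 (22.2%), against 6.86% of 27025 genes with a window and 9.92% of the 9720 among them that were tested. It was in 4 of the 10 higher members with a window (Apex1, Parp1, Tdg and Xrcc5) and in 1 of the 4 lower ones (Lig3). Among the 22 not passing it was in 3 (Ercc6, Ercc8 and Parp2). The lower members Xpc and Ddb2 had no window. The last 100 bases before the start are shown for the 4 called members whose hexamer, in capitals, begins within 50 bases of it, to set the 3 that rose beside Lig3, which fell. It begins 24 bases before the start in Apex1 (chr14:50924849-50924948), 49 in Parp1 (chr1:180568791-180568890), 28 in Tdg (chr10:82629738-82629837) and 21 in Lig3 (chr11:82781009-82781108), all on the plus strand of GRCm38.p6.
Apex1: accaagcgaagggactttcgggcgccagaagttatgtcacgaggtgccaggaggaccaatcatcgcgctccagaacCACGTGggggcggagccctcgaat
Parp1: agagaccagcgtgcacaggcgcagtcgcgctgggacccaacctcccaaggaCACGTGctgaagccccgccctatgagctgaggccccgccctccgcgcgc
Tdg: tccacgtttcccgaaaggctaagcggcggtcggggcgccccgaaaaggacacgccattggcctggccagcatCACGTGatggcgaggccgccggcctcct
Lig3: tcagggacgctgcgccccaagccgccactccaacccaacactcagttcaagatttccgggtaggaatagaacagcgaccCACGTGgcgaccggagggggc
Lig3 is the only one of these 4 that fell, and its reads may be mixed with those of Rffl. Whether the hexamer bears on any of these changes was not tested. Other short motifs were counted in the same way: GGGCGG was in 24 of 36 windows (66.7%, against 62.3% of tested and 35.4% of all genes), CCAAT in 20 (55.6%, 40.9% and 37.5%), CCGGAAG in 6 (16.7%, 16.1% and 7.83%), and TTTCCCGC or TTTGGCGC in 2 (5.56%, 2.89% and 1.51%). These are letter matches, described without a test, and none of the motifs contains another, although matches side by side can share bases.

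Mismatch repair showed 1 change in 5. Msh3, whose product recognises larger insertion and deletion loops, rose from 35.8, 36.7 and 34.8 to 42.7, 41 and 43.5 CPM (0.25 ± 0.06, edgeR adjusted p = 0.0121). Msh6, whose product recognises single mismatches and competes with MSH3 for a common partner, was at 142, 129 and 128 CPM against 133, 133 and 143 CPM (0.04 ± 0.06, 95% interval -0.10 to 0.17, edgeR adjusted p = 0.678). Msh6 to Msh3 count ratios of 3.98, 3.52 and 3.67 in sensitive and 3.10, 3.26 and 3.29 in resistant libraries did not overlap. The call of Msh3 was lost without sensitive replicate 3 (0.0602). The MutL genes did not pass: Pms1 was at -0.01 ± 0.09, Pms2, which has the endonuclease site, at -0.05 ± 0.07, and Mlh3, a partner in meiotic crossing over and loop repair, at -0.14 ± 0.10 on the log2 scale. Rsph10b, which overlaps 1.05% of the exon bases of Pms2 on the same strand, rose from 0.261 to 1.46 CPM. Mgmt, which takes alkyl groups off guanine in a single step, had sensitive values of 11.3 to 13.1 CPM and resistant values of 10 to 10.8 CPM (-0.19 ± 0.10, edgeR adjusted p = 0.152). Its groups did not overlap and its call failed in all 14 alternatives.

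End joining held both the largest rise and the largest fall. Lig4, the ligase that seals the joined ends, fell from 9.46, 7.77 and 9.01 to 5.48, 5.28 and 4.13 CPM (-0.82 ± 0.14, edgeR adjusted p = 0.00148). Xrcc4, its obligate partner, did not pass, at 10.2, 11.1 and 11.2 CPM in sensitive and 10.5, 9.1 and 11.6 CPM in resistant libraries (-0.06 ± 0.11, 95% interval -0.31 to 0.19, edgeR adjusted p = 0.717). There were thus 1.08, 1.43 and 1.24 Xrcc4 counts per Lig4 count in sensitive and 1.91, 1.72 and 2.80 in resistant blasts, with no overlap. Nhej1 (XLF), which bridges the ends beside XRCC4, did not pass (-0.18 ± 0.14, edgeR adjusted p = 0.362).

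Xrcc5, which encodes the Ku80 subunit of the Ku dimer, was the member with the largest change, a 2.14-fold rise from 1.89, 1.73 and 1.44 to 3.59, 3.91 and 3.35 CPM (1.10 ± 0.19, edgeR adjusted p = 0.00123). That call held in all 14 alternatives, and it rests on 44 to 55 counts per sensitive and 86 to 114 counts per resistant library. Xrcc6, which encodes the Ku70 subunit, was at 85.5, 81.1 and 77.8 CPM in sensitive and 71.6, 89.4 and 78.8 CPM in resistant libraries (-0.03 ± 0.08, edgeR adjusted p = 0.8). Each library held 45.2 to 53.9 counts of Xrcc6 per count of Xrcc5 in the sensitive group and 19.9 to 23.5 in the resistant group. Per kb of exon the levels were 18.0 CPM for Xrcc6 and 1.04 CPM for Xrcc5, although their proteins pair with each other. Desi1 on the opposite strand shares 7.69% of the exon bases of Xrcc6. On GENCODE M21 no other gene overlaps the exons of Xrcc5, and no transcript of another gene matched it over at least 200 bases at 95% identity; how its reads were counted was not tested. Prkdc, the catalytic kinase subunit that Ku recruits, was at 61, 62.6 and 62.6 against 61.4, 65.9 and 59 CPM, with a 95% interval of -0.14 to 0.14. Dclre1c (Artemis), the nuclease that opens hairpin ends, fell short of the threshold (-0.26 ± 0.09, edgeR adjusted p = 0.0504), with resistant values of 18.3 to 19.5 CPM below sensitive ones of 20.6 to 25.4 CPM. It passed without sensitive replicate 1 (0.032), and with scaling to library totals (0.0365).

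**Figure D3:**
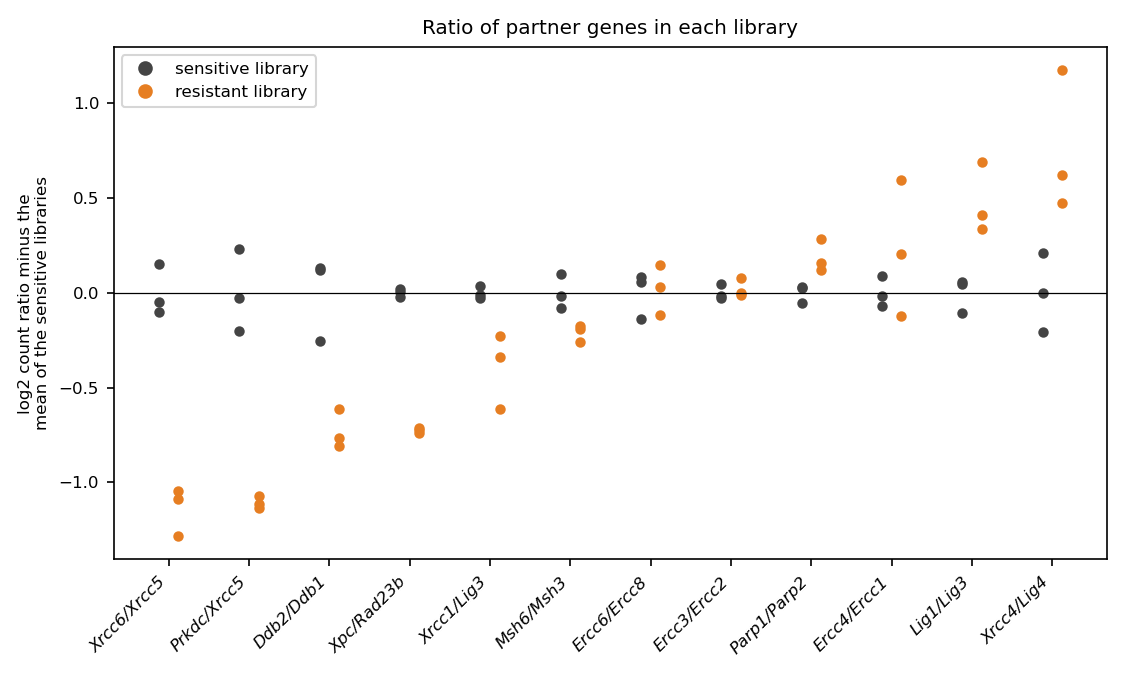
Log2 count ratio of 2 partner genes per library, minus the mean of the 3 sensitive libraries (y axis), for 12 pairs (x axis). The pairs share a complex or step and were chosen with earlier results of these data known. Each point is 1 library, and some genes are in more than 1 pair. The resistant libraries lie apart from the sensitive ones in 9 pairs, below in 6 and above in 3, and overlap for Ercc3/Ercc2, Ercc6/Ercc8 and Ercc4/Ercc1.

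Ratios within a library do not depend on scaling. Of the 12 pairs, which were chosen with earlier results of these data known, 9 had groups that did not overlap. The share for ratios of other gene pairs was not computed, and 52.4% of all tested single genes did not overlap, so the count of pairs is a description. Each of the 9 had an exact 2-sided permutation p = 0.1, the smallest that 3 against 3 libraries can give, and 0.133 after adjustment over the 12, so no ratio could pass a threshold of 0.05. The log2 difference was -0.73 for Xpc/Rad23b, -0.73 for Ddb2/Ddb1, -0.39 for Xrcc1/Lig3, -1.14 for Xrcc6/Xrcc5 and 0.76 for Xrcc4/Lig4. In Xpc/Rad23b the SD between libraries was 0.02 in sensitive and 0.01 in resistant blasts on the log2 scale, which made it the tightest of these. Ercc3/Ercc2 and Ercc6/Ercc8, the helicase and the transcription-coupling pairs, differed by 0.02 each.

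**Figure D4:**
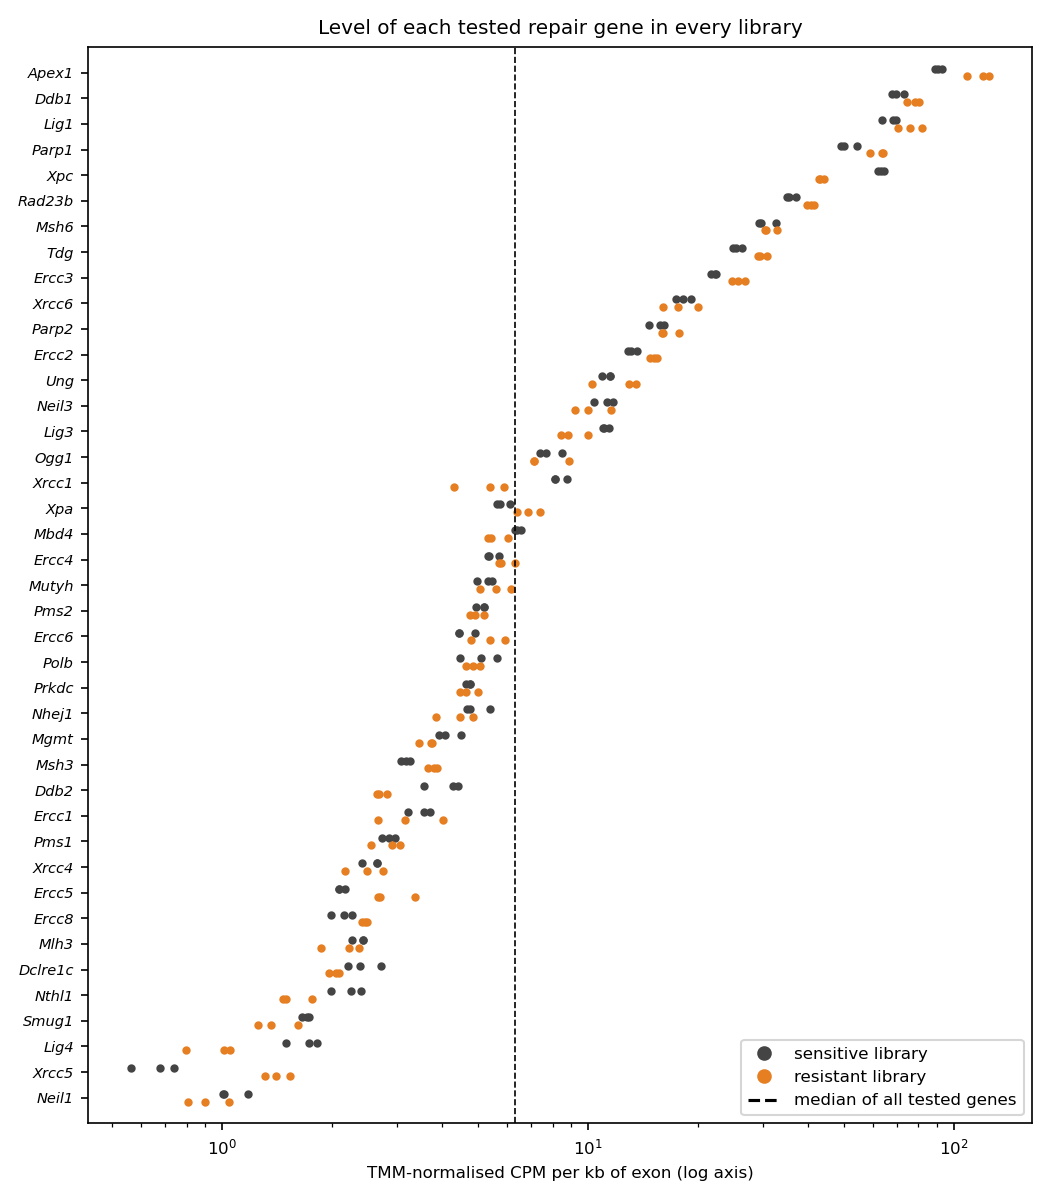
Level of each of the 41 tested repair genes in every library, as TMM-normalised CPM per kb of exon on a log axis (x axis), genes ordered by their mean over 6 libraries; the dashed line is the median of all tested genes, 6.32. By this mean Apex1 comes first with 104 and Neil1 last with 0.991, although Xrcc5 was below Neil1 in every sensitive library, and 18 of 41 means lie above the line.

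Levels per kb of exon, which allow genes to be compared, spread over a 105-fold range. Apex1 was the highest (104 ± 15.8 CPM per kb, SD over 6 libraries), followed by Ddb1 (73.9 ± 4.88), Lig1 (71.4 ± 6.42), Parp1 (56.7 ± 6.47) and Xpc (53.3 ± 10.9). Xpc, the lowest of these 5, was above 92.2% of tested genes. Ddb1 and Lig1 did not differ beyond their spread, nor did Parp1 and Xpc. The order of Parp1 and Xpc depended on the group: Xpc was above Parp1 in each sensitive library and below it in each resistant one. Next came Rad23b (38.2 ± 2.78), Msh6 (31 ± 1.5), Tdg (27.7 ± 2.46) and Ercc3 (23.9 ± 2.14). The lowest were Smug1 (1.55 ± 0.197), Lig4 (1.32 ± 0.422), Xrcc5 (1.04 ± 0.424) and Neil1 (0.991 ± 0.126), and the order of the last 3 depended on the group. In sensitive libraries Xrcc5 (0.565 to 0.741) was below Neil1 (1.01 to 1.18) and Lig4 (1.49 to 1.82), and in resistant ones it was above both, at 1.31 to 1.53 against 0.808 to 1.04 for Neil1 and 0.795 to 1.05 for Lig4. The median over the 41 was 5.43 CPM per kb, against 6.32 over 12993 tested genes with a length. Scaled by the longest transcript instead, the median over the members was 7.67. The median of all tested genes was not computed on that scale, so 7.67 cannot be set against 6.32. By longest transcript the mean of Xrcc5 (1.04) was below that of Neil1 (1.10).

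Of 59 other genes of the same pathways, 58 were tested, and 5 were higher and 6 lower (19% called, against 39.2% of all tested genes). Among 19 other nucleotide excision repair genes, 2 were higher and 1 lower. The TFIIH genes Gtf2h1 (0.18 ± 0.05) and Ccnh (0.19 ± 0.06), a core subunit and the cyclin of its kinase, rose with Ercc2 and Ercc3, while Mnat1, the assembly factor of that kinase, fell by 0.26 ± 0.08. In base excision repair 1 of 10 was called: Aplf, which binds poly(ADP-ribose) and also assists end joining, fell from 18.1 to 12.3 CPM (-0.56 ± 0.09, edgeR adjusted p = 0.00106). Of 15 resynthesis genes 2 were higher and 2 lower. The catalytic subunit gene of DNA polymerase epsilon, Pole, rose by 0.22 ± 0.05 and its subunit gene Pole3 by 0.21 ± 0.07, whereas Pole2 fell by 0.34 ± 0.06 and the clamp loader gene Rfc1 by 0.18 ± 0.05. Among 12 tested other end-joining genes, Polm, a polymerase that fills ends, rose from 22.3 to 31.3 CPM (0.49 ± 0.08, edgeR adjusted p = 0.00108). Rif1 (-0.23 ± 0.05) and Trp53bp1 (-0.20 ± 0.07), which protect broken ends from resection, fell. Neither of the 2 other direct reversal genes, Alkbh2 and Alkbh3, passed. Leaving out any 1 sensitive library cut the higher calls to 2 or 3, and without sensitive replicate 1 or 2 the lower ones were 3.

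Several members also act in DNA replication, so proliferation genes are given beside them. Of 20, 0 were higher and 6 lower, against 18.5% and 20.8% of all tested genes, and 14 did not pass. The median log2 fold change was -0.05, with a range of -0.34 to 0.09. Top2a (-0.34 ± 0.05), the mitotic kinase gene Plk1 (-0.29 ± 0.06) and Cdk1 (-0.21 ± 0.06) fell, and had the smallest adjusted p of the 20. The part of proliferation in the repair gene changes was not tested.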

How the data were processed

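Whole-number counts for each Ensembl gene were deposited by the authors, and the submitters' processing notes name TopHat2, RSEM and build mm9, with no version or role. Annotation release, strand setting, handling of shared reads, and whether the values are direct counts or rounded estimates are left unstated in those notes and the labels. Columns were matched to samples by title, and 0 were left unused. After filterByExpr, TMM scaling (factors 0.978 to 1.02) was applied, and edgeR 4.0.16 under R 4.3.3 gave the quasi-likelihood test on group alone, with p-values adjusted by Benjamini-Hochberg over 13414 genes. The test was checked on simulated data. CPM are TMM-normalised, as mean ± SD of 3, and each log2 change sets resistant over sensitive, with an SE derived from the estimate and its F statistic.

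GENCODE M21, a later build than mm9, served for names (31636 IDs matched), exon lengths, overlaps and neighbours; copies were sought with BLAST 2.17.0, and RefSeq windows of GRCm38.p6 gave upstream sequence. Between libraries of 1 group the chi-square divided by its degrees of freedom was 3.92 or more, so none was a second copy. Correlations of deviations were -0.11 to 0.07 between same-numbered libraries and -0.12 to 0.098 between differently numbered ones. No sign of pairing by number was seen, but 3 libraries per group cannot exclude it. All members are named, with up to 4 other genes per pathway list and 3 proliferation genes by smallest adjusted p, and genes that overlap or adjoin a member; the marker genes were named after their values were seen. The members, lists and pairs were chosen with earlier results of these data known, and the motifs after looking at the calls. Alternatives were RLE, upper quartile and library-total scaling, DESeq2 1.42.0, limma-voom (limma 3.58.1), no low-count filter, CPM above 1 in 3 libraries, the replicate number as a block, and each library left out.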

Additional observations from a re-analysis of the deposited data

How the results depend on the processing

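Of the 17 called repair genes, 9 passed in all 14 alternatives (Xpc, Ddb2, Ercc5, Apex1, Parp1, Xrcc1, Lig3, Lig4 and Xrcc5) and 8 lost the call in at least 1; of the 24 not passing, 18 passed in none and 6 in at least 1. With 1 library left out, 5 to 12 members were higher and 5 to 7 lower, 2 to 6 other pathway genes were higher and 3 to 8 lower, and 1641 to 2521 of all genes were higher. The counts of higher members without sensitive replicate 2 (5) and 3 (7), and of all genes without sensitive replicate 2 (1641), differed from the full data by over 1.5 times, as did the other pathway genes higher with library totals (3). The cause was not tested. Library totals lowered the median change of all genes by 0.03, gave 9 members higher and 8 lower, and other scalings gave 11 or 12 higher and 6 lower. The replicate block gave 11 and 6, and of the 17 calls it lost that of Ddb1 (adjusted p = 0.0628), while Ercc6 passed (0.0207). The median level per kb was 7.67 by longest transcript and 5.29 to 5.52 with 1 library left out.

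Members near 0 changed sign without passing. With 1 library left out, Ercc1 ranged from -0.26 to 0.05, Ogg1 from -0.13 to 0.029, Polb from -0.14 to 0.025, Pms1 from -0.067 to 0.072, Xrcc6 from -0.11 to 0.046, Xrcc4 from -0.13 to 0.031 and Prkdc from -0.038 to 0.041. The positive values were these. Ercc1 was at 0.05 without resistant replicate 1. Ogg1 was at 0.029, 0.025 and 0.026 without sensitive replicate 3, resistant replicate 1 and resistant replicate 3, Polb at 0.025 and Pms1 at 0.02 without sensitive replicate 1, and Pms1 at 0.072 without resistant replicate 3. Xrcc6 was at 0.0071 without sensitive replicate 1 and 0.046 without resistant replicate 1, and Xrcc4 at 0.031 without resistant replicate 2. Prkdc was at 0.0053 (RLE), 0.0039 (upper quartile), 0.0033 (DESeq2), 6.2e-05 (no low-count filter) and 0.0053 (CPM above 1), and at 0.0035, 0.0041, 0.0085 and 0.041 without sensitive replicate 2, sensitive replicate 3, resistant replicate 1 and resistant replicate 3. Depth limited the genes with few counts: Neil2 was not tested, and Neil1 and Xrcc5 had the widest intervals among the members. Differences of the log2 Ercc3/Ercc2 and Ercc6/Ercc8 ratios ranged from -0.01 to 0.05 and -0.05 to 0.09 with 1 library left out.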
